A study of Sus scrofa with 20 samples.

Results

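Kidney RNA of 20 pigs was read on 1-colour porcine arrays, and 55 genes of nuclear receptor and transcription factor families are described here, of 6765 genes that had a probe set with a single platform symbol. The 10 control pigs had a burr hole, catheters and anaesthesia, and the other 10 also had a subdural balloon inflated until neurologic death (ND) was reached. Both groups were then ventilated for 6 h with boluses of 2 cc/kg of 0.9% saline to hold the mean arterial pressure above 35 mmHg, so that surgery, anaesthesia, ventilation and saline were shared. Strain, sex and age were not given in the labels, and each array was taken as 1 animal. The comparison asks how ND alters kidney gene expression before organ recovery.

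The 55 genes were chosen by symbol alone: nuclear receptor symbols of the NR form, and symbols that start with KLF, FOX, HNF, CEBP, SOX, GATA, HOX, PAX, TCF, NFI or ESRR. NR3C1, KLF9, KLF15, FOXO1, FOXO3, HNF4A and NFIL3 were left out by the same rule. The choice gave 10 nuclear receptors, 9 FOX, 7 TCF, 6 HOX, 6 KLF, 5 CEBP, 5 GATA, 3 NFI and 3 SOX genes and 1 PAX gene, and no HNF or ESRR gene was analysed here. A shared prefix is not always a shared function. FOXRED1 is a mitochondrial assembly factor of respiratory complex I and no forkhead factor, GATAD2A is a subunit of a chromatin remodelling complex, CEBPZOS is named only for its position opposite CEBPZ, TCF4 and TCFL5 are basic helix-loop-helix proteins, and TCF7L1 and TCF7L2 are the HMG box partners of beta-catenin.

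Nuclear receptors are transcription factors whose activity is set by a lipid or steroid ligand, or, for the orphan receptors, mainly by how much of them is made. HOX genes lie in clusters and give cells their position along the body axes, and the adult kidney keeps expressing many of them. KLF, FOX, C/EBP, GATA, NFI and SOX proteins bind DNA through family-specific domains, and they set cell identity or relay acute signals.

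Values were log2 signals as deposited, with 1 probe set per gene, and differences are ND minus control with 10 animals per group. Adjusted p-values are limma's, by the Benjamini-Hochberg method across all 23999 probe sets, of which 7.13% passed the threshold of 0.05. Array medians lay between 5.09 and 5.35 and were 0.089 higher in ND (two-sided permutation p = 0.00594). Background was the highest value of tag and tryptophan control probe sets, 2.79. Of the 55 genes, 36 were above it on all 20 arrays, 11 were under it on all 20, and 8 were mixed. Animal numbers were not balanced, with 7 of 10 ND animals but 1 of 10 controls numbered up to 100, and the labels do not say what the numbers stand for. In controls a term for numbers up to 100 therefore rests on Control_02 alone. Control_184 and all animals with a higher number, 5 controls and 3 ND, are called the high-numbered animals. All 9 measured proximal tubule markers were read above background on at least 1 array, among them LRP2, the endocytic receptor megalin, with a mean of 13.6 in ND. In whole tissue, fewer cells of a type and less RNA per cell cannot be told apart.

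In the kidneys of ND pigs HOXD10 and HOXD8, neighbouring genes of the HOXD cluster, fell 1.75-fold and 1.45-fold. NR1I2, which encodes the xenobiotic-sensing pregnane X receptor, fell 2.86-fold to near background, and FOXRED1 fell 1.54-fold. TCF7L1, a DNA-binding repressor of the Wnt pathway, rose 1.55-fold, although in the high-numbered animals its difference was 0.10 on the log2 scale. These 5 were the only members of 55 that passed the threshold in the fit of all 20 animals, 1 higher and 4 lower. The share was 9.09%, and 9.99% of all 6765 genes passed by the same rule (5.44% higher and 4.55% lower), so as a group the families changed about as often as the genes at large. The median difference was -0.031 over the 55 and -0.017 over all genes, with 20 members above 0 and 35 below. At an unadjusted p under 0.05 in limma there were 15 of 55 members, against 30.1% of all genes. Among those members PAX3, NR0B1, TCF4 and KLF2 were under background on all 20 arrays. With array medians made equal the split became 1 higher and 16 lower, and 30.3% of all genes passed.

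**Figure D1:**
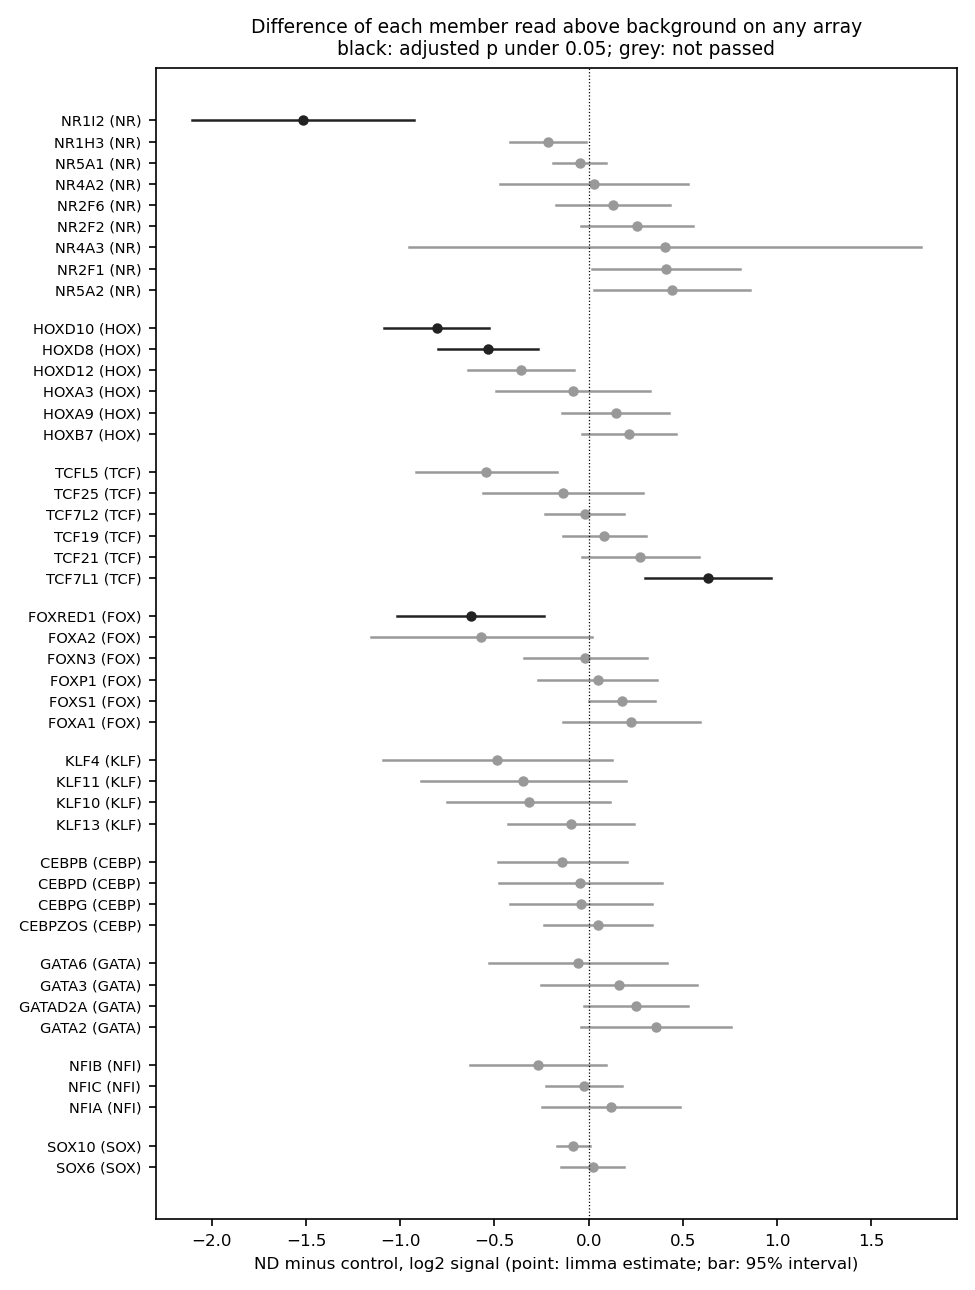
Difference between ND and control animals for the 44 members read above background on at least 1 array, grouped by family, on the log2 scale, with 95% intervals from limma. HOXD10 (-0.81), HOXD8 (-0.54), NR1I2 (-1.51), FOXRED1 (-0.63) and TCF7L1 (0.63), in black, passed the adjusted threshold, and most other intervals cross 0.

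HOXD10 had the smallest p of all members. It read between 7.50 and 8.80 in ND (median 8.38) and between 8.85 and 9.39 in controls (median 9.12). Every ND animal lay below every control, a separation seen for 0.591% of all genes and for no other member. The means were 8.32 ± 0.39 (SD, n = 10) and 9.13 ± 0.19 (SD, n = 10), a fall of 0.81 on the log2 scale (SE 0.13, adjusted p = 0.00125). HOXD10 alone among the members kept its call in each of 13 alternative settings and without each of the 20 animals in turn. HOXD10 also split the controls by animal number: the 5 high-numbered controls averaged 8.98 ± 0.10 (SD) and the other 5 averaged 9.28 ± 0.10 (SD), with no overlap between them (8.85 to 9.06 and 9.18 to 9.39). In the high-numbered animals the difference between ND and control was -0.67 (SE 0.077, adjusted p = 0.0423), and with the animal number term HOXD10 was at -0.84 (adjusted p = 0.0155). Among controls that term rests on Control_02 alone, so it does not describe the split at Control_184.

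HOXD8 read 9.60 to 10.8 in ND (median 10.5) and 10.6 to 11.3 in controls (median 10.96). All 10 ND animals were below the control mean, although 2 controls lay within the ND range. The fall was 0.54 on the log2 scale (SE 0.13, adjusted p = 0.0138). With a term for animal number up to 100 the difference was -0.41 (adjusted p = 0.213), and in the high-numbered animals it was -0.49 (adjusted p = 0.0510).

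HOXD12, the other measured gene of that cluster, read 4.50 to 5.29 in ND and 4.91 to 5.83 in controls, at -0.36 (SE 0.13, adjusted p = 0.104). Of the 10 ND animals 9 were below the control mean, while 6 controls lay within the ND range. The 3 HOX genes of other clusters did not pass. HOXA9 was at 0.14 (95% interval -0.14 to 0.43), HOXA3 at -0.084 (-0.49 to 0.32) and HOXB7 at 0.22 (-0.034 to 0.47). HOXB7 spread more widely in ND (7.82 to 8.87) than in controls (7.74 to 8.30).

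**Figure D2:**
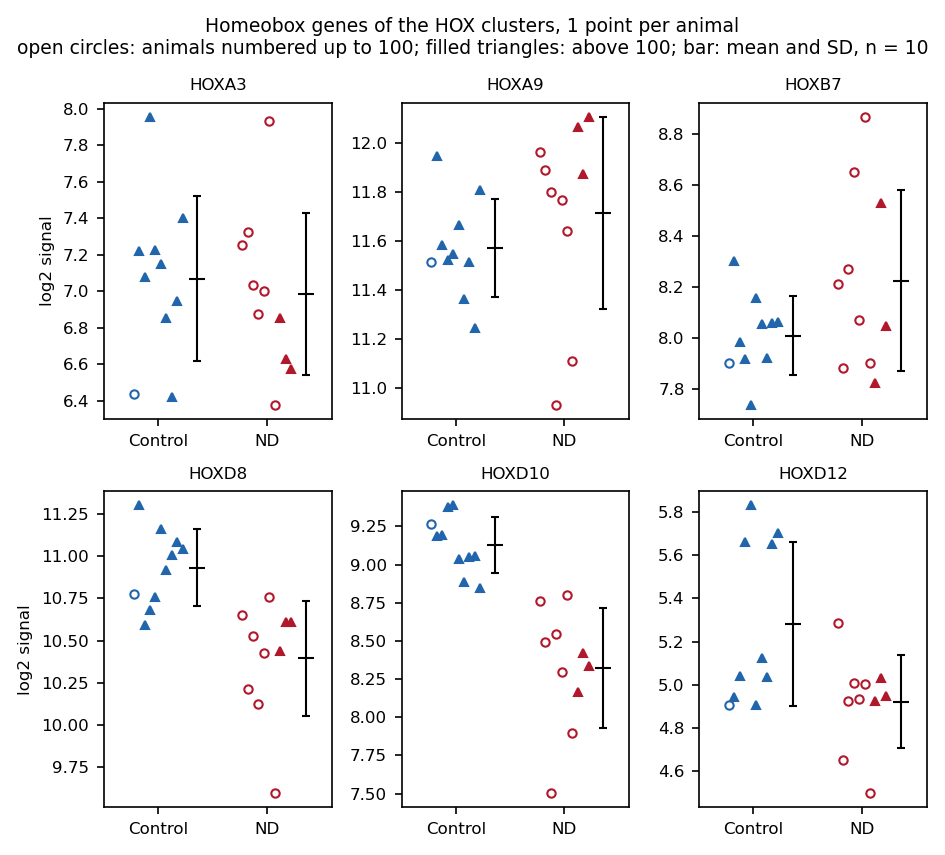
Log2 signal of the 6 measured HOX genes in each animal, controls in blue and ND in red, with the group mean and SD. HOXD10 separates the groups completely, HOXD8 nearly so, and for HOXA3, HOXA9, HOXB7 and HOXD12 the groups overlap widely.

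Markers of other kidney segments are given beside the HOXD falls. None of 6 measured distal nephron and collecting duct markers passed in limma (3 at an unadjusted p under 0.05), with a median difference of -0.27. SCNN1A and AVPR2 were at background on all arrays. The log2 signals of all 6 markers, SCNN1A and AVPR2 included, summed to 37.5 to 41.7 per ND animal and 39.1 to 42.5 per control. Of 9 proximal tubule markers 3 fell and none rose, with sums of 87.2 to 104 in ND and 99.6 to 105 in controls. The part of segment make-up in the HOXD falls was not tested.

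Among nuclear receptors that bind small ligands, NR1I2 changed most. The pregnane X receptor induces drug-metabolizing enzymes and transporters. Its signal ran from 2.78 to 5.28 in controls (median 4.65) and from 2.15 to 3.52 in ND (median 2.84). It was above background in 9 of 10 controls but in 6 of 10 ND animals, and the ND values that remained were close to that level. The ND mean was 2.86 ± 0.35 (SD, n = 10) and the control mean 4.37 ± 0.85 (SD, n = 10). The difference of -1.51 (SE 0.28, adjusted p = 0.00290) is limited by background on the ND side. The call held with the animal number term (-1.67, adjusted p = 0.0215), which rests in controls on Control_02 alone. It was lost in the high-numbered animals, where the difference was -1.31 (adjusted p = 0.377) and Control_190 was the lone control under background. The other NR1I2 probe set was at background on all arrays, and the mean over both was at -0.77 (adjusted p = 0.00196).

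NR1H3, the liver X receptor alpha that senses oxysterols, was at -0.21 (95% interval -0.42 to -0.012, adjusted p = 0.152). It read 7.86 to 8.59 in ND and 8.04 to 8.68 in controls, and 8 of 10 ND animals were below the control mean. With array medians made equal its adjusted p was 0.0490, but 30.3% of all genes passed there. It passed in none of the other alternative settings.

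The orphan receptors of the COUP-TF group, which control vessel, stromal and epithelial identity, had mixed readings. NR2F1 (COUP-TFI) read 8.08 to 9.42 in ND and 7.39 to 9.07 in controls, at 0.41 (adjusted p = 0.156). With the animal number term the NR2F1 difference was 0.80 and passed (adjusted p = 0.0391). That term rests in controls on Control_02, which had the lowest NR2F1 value of all animals. NR2F6 was at 0.13 (95% interval -0.18 to 0.43).

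NR2F2 (COUP-TFII) had 4 probe sets that differed in result. The brightest, used by the rule, was at 0.25 (SE 0.14, adjusted p = 0.222), with 7 of 10 ND animals above the control mean. The second ran from 8.56 to 9.89 in ND and from 7.43 to 9.29 in controls, a difference of 0.67 (SE 0.19) that passed (adjusted p = 0.0404). The third ran from 6.57 to 7.45 in ND and from 5.13 to 7.41 in controls, and passed at 0.77 (SE 0.22, adjusted p = 0.0352). The fourth was at 0.27 (adjusted p = 0.237). All 4 pointed up, and the mean over the 4 passed as well (0.49, adjusted p = 0.0368, adjusted over genes). The 2 calls were fragile. The second lost its call without any of ND_01, ND_86, ND_92, ND_194, ND_198, Control_02, Control_155, Control_156, Control_187, Control_190 or Control_197 (highest adjusted p = 0.0750). The third lost it without any of ND_01, ND_86, ND_92, ND_194, ND_198, Control_156, Control_157, Control_187, Control_190 or Control_197 (highest adjusted p = 0.0666). With the animal number term neither passed (adjusted p = 0.108 and 0.185).

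The NR4A receptors are immediate early genes whose transcription follows cAMP and calcium signals within minutes to hours. NR4A3 (NOR1) ranged from 3.42 to 8.69 in ND (median 5.34) and from 3.50 to 7.09 in controls (median 5.45). Its difference of 0.40 had a 95% interval of -0.95 to 1.76, the widest of all members, and the within-group SD was 1.75 in ND and 1.18 in controls. ND_31, ND_47 and ND_86 were above every control, and ND_01 was below every control. NR4A2 (NURR1) was at 0.029 (95% interval -0.47 to 0.53). The other immediate early genes stand beside them: of 14 measured, 4 rose and none fell (median 0.59), among them FOS (1.72, adjusted p = 0.00613), EGR1 (1.89, adjusted p = 0.0223) and IER2 (0.79, adjusted p = 0.0255). The FOS, EGR1 and IER2 calls were lost with the animal number term and in the high-numbered animals. Those of EGR1 and IER2 were also lost without ND_47 and ND_92 together. Across the 13 alternative settings the lowest difference was 1.43 for FOS, 1.54 for EGR1 and 0.30 for IER2.

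NR5A2 (LRH-1), a regulator of bile acid and steroid genes, was under background in all controls and above it in 4 ND animals: ND_22, ND_47, ND_86 and ND_92. The ND mean was 1.13-fold above that level but the ND median (2.66) was under it, and the difference of 0.44 did not pass (adjusted p = 0.151). The other 4 NR5A2 probe sets were near or under background, with differences from -0.071 to -0.022, all below 0 and none passing. The probe set used had the highest mean over all arrays, but in controls another was brighter (mean 2.72 against 2.53). NR5A1 (SF-1), the master regulator of adrenal and gonadal steroid synthesis, was above background in 1 animal of each group. NR0B1 (DAX1), its partner repressor, was under background in all 20 animals.

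**Figure D3:**
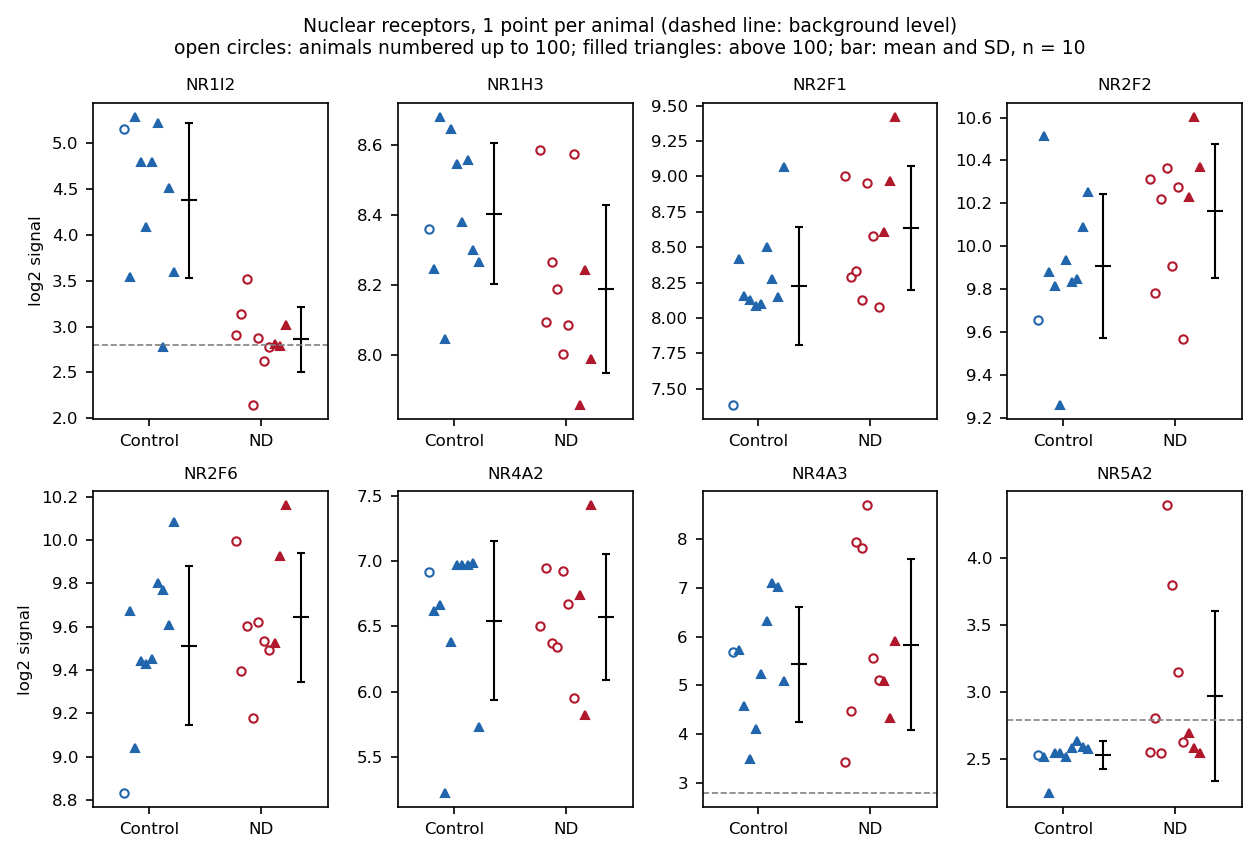
Log2 signal of 8 nuclear receptors in each animal, with group mean and SD and the background level (2.79) as a dashed line. NR1I2 drops to the background line in ND, NR5A2 leaves it in 4 ND animals, NR4A3 spreads over more than 5 log2 units in ND, and the other panels overlap.

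The TCF genes divide by protein type. TCF7L1 read 6.28 to 7.27 in ND (median 6.57) and 5.40 to 6.48 in controls (median 5.97). All 10 ND animals were above the control mean, and 7 were above the highest control. The rise was 0.63 (SE 0.16, adjusted p = 0.0198). The control values split by animal number: the 5 high-numbered controls averaged 6.32 ± 0.18 (SD), and the other 5 averaged 5.61 ± 0.26 (SD). Against the 3 high-numbered ND animals, at 6.42 ± 0.17 (SD), the difference was 0.10 (adjusted p = 0.698). With the animal number term the difference stayed at 0.63, but the call was lost (adjusted p = 0.134). Among controls that term sets only Control_02 apart, so it does not describe this split. TCF7L2, the related Wnt effector, was at -0.022 (95% interval -0.23 to 0.19).

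TCFL5 read 7.29 to 8.94 in ND and 8.61 to 9.38 in controls, at -0.54 (SE 0.18, adjusted p = 0.0729). Of the 10 ND animals 9 were below the control mean, and ND_47 and ND_92 were lowest. It passed without ND_01 (adjusted p = 0.0487), with array medians made equal (adjusted p = 0.0411) and with dim probe sets left out (adjusted p = 0.0495). The last 2 were the only ones of 13 alternative settings in which it passed. Across the 13 its difference ran from -0.63 to -0.27, with adjusted p up to 0.579. TCF21, a mesenchymal and podocyte factor, was at 0.28 (adjusted p = 0.211), and TCF25 was at -0.14 (adjusted p = 0.644).

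Of the 9 FOX genes FOXRED1 alone passed. It read 6.66 to 8.12 in ND (median 7.75) and 7.73 to 8.62 in controls (median 8.17), a fall of 0.63 on the log2 scale (SE 0.19, adjusted p = 0.0484). ND_22, ND_47 and ND_92 were lowest, and 5 ND animals lay below every control. The call was lost on leaving out any 1 of 14 animals, ND_22, ND_47, ND_86, ND_92, ND_100 or any control except Control_199 (highest adjusted p = 0.0911). It was also lost without ND_47 and ND_92 together (-0.45, adjusted p = 0.130) and with the animal number term (-0.36, adjusted p = 0.535). The second FOXRED1 probe set was at -0.46 (adjusted p = 0.110).

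True forkhead factors did not pass. FOXN3 was at -0.017 (95% interval -0.34 to 0.31) and FOXP1 at 0.047 (-0.27 to 0.36). The pioneer factors FOXA1 and FOXA2, which open chromatin in epithelia, were mostly unread. FOXA2 was above background in 3 controls, Control_134, Control_156 and Control_157, and in no ND animal (-0.57, adjusted p = 0.180). The control mean was 1.06-fold above the background level, but the control median (2.34) was under it. FOXA1 was above background in ND_47 and ND_92 only. FOXS1, a pericyte gene, was above background in 4 ND animals and no control (0.18, adjusted p = 0.164). FOXP3 of regulatory T cells, FOXM1 of dividing cells and FOXL2 of the ovary were under background in all 20 animals.

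None of 6 KLF genes passed in limma (1 at an unadjusted p under 0.05, the unread KLF2), and all 6 differences were below 0. KLF4, a stress and differentiation factor of epithelium and endothelium, read 6.19 to 8.75 in ND and 6.82 to 8.24 in controls, at -0.48 (95% interval -1.09 to 0.13, adjusted p = 0.251). KLF4 was highest of all animals in ND_47 and below every control in 4 other ND animals. KLF10, a TGF-beta inducible gene, was at -0.32 (adjusted p = 0.280) and its relative KLF11 at -0.35 (adjusted p = 0.345). KLF13 was at -0.096 (95% interval -0.43 to 0.24). KLF2 of flow-exposed endothelium and KLF1 of red cell precursors were under background on every array.

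Endothelial genes that KLF2 and KLF4 are known to control stand beside this. Of 14 measured 3 rose and none fell (median 0.30): VCAM1 (1.70, adjusted p = 0.00275), CLDN5 (2.02, adjusted p = 0.00370) and ICAM1 (0.96, adjusted p = 0.0110). These 3 calls were lost with the animal number term and in the high-numbered animals, where 0.325% of all genes passed. Across the 13 alternative settings the lowest difference was 1.34 for VCAM1, 1.63 for CLDN5 and 0.45 for ICAM1. VCAM1 and ICAM1 are leukocyte adhesion molecules that inflammatory signals induce, and KLF2 represses VCAM1. NOS3 (0.27, adjusted p = 0.604) and THBD (-1.40, adjusted p = 0.123), which KLF2 induces, did not pass. Both were named after their values were seen. The part of KLF2 and KLF4 in these endothelial genes was not tested. CLDN5 was also the 1 of 11 endothelial markers that rose, and the sums of those markers were 63.2 to 79.5 in ND and 65.6 to 69.6 in controls, with KDR at background on all arrays.

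None of 5 CEBP genes passed by its brightest probe set in limma (0 at an unadjusted p under 0.05). CEBPB and CEBPD drive acute phase and cytokine genes. CEBPB read 9.72 to 11.1 in ND and 9.64 to 10.8 in controls, at -0.14 (95% interval -0.48 to 0.20), and ND_47 was highest. CEBPD read 12.7 to 14.4 in ND and 12.9 to 14.1 in controls, at -0.044 (95% interval -0.48 to 0.39). CEBPG was at -0.042 (adjusted p = 0.881), and CEBPA was under background throughout.

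The 3 CEBPD probe sets differed. The dimmest ran from 4.93 to 5.98 in ND and from 5.60 to 6.40 in controls, a fall of 0.50 on the log2 scale (SE 0.14) that passed (adjusted p = 0.0350), while the second was at -0.12 (adjusted p = 0.812). That call was lost without any of ND_92, ND_194, ND_198, Control_156, Control_157, Control_184, Control_187, Control_190 or Control_197 (highest adjusted p = 0.0651). It was also lost with the animal number term (-0.65, adjusted p = 0.0570), in the high-numbered animals (-0.83, adjusted p = 0.120) and without ND_47 and ND_92 together (-0.51, adjusted p = 0.0528).

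Of 13 acute phase genes that C/EBP factors regulate 2 rose and none fell: the serum amyloid gene SAA2 (0.84, adjusted p = 0.00271) and complement C3 (0.79, adjusted p = 0.0209). Both calls were lost in the high-numbered animals. The C3 call was also lost with the animal number term and without ND_47 and ND_92 together. HP, CRP, SERPINA1, CSF3 and ITIH4 were at background on all arrays, and the median of the list, -0.024, is the difference of the unread CRP. The fibrinogen chain genes FGB (-1.50, adjusted p = 0.0528) and FGG (-1.71, adjusted p = 0.172) had negative differences that did not pass.

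**Figure D4:**
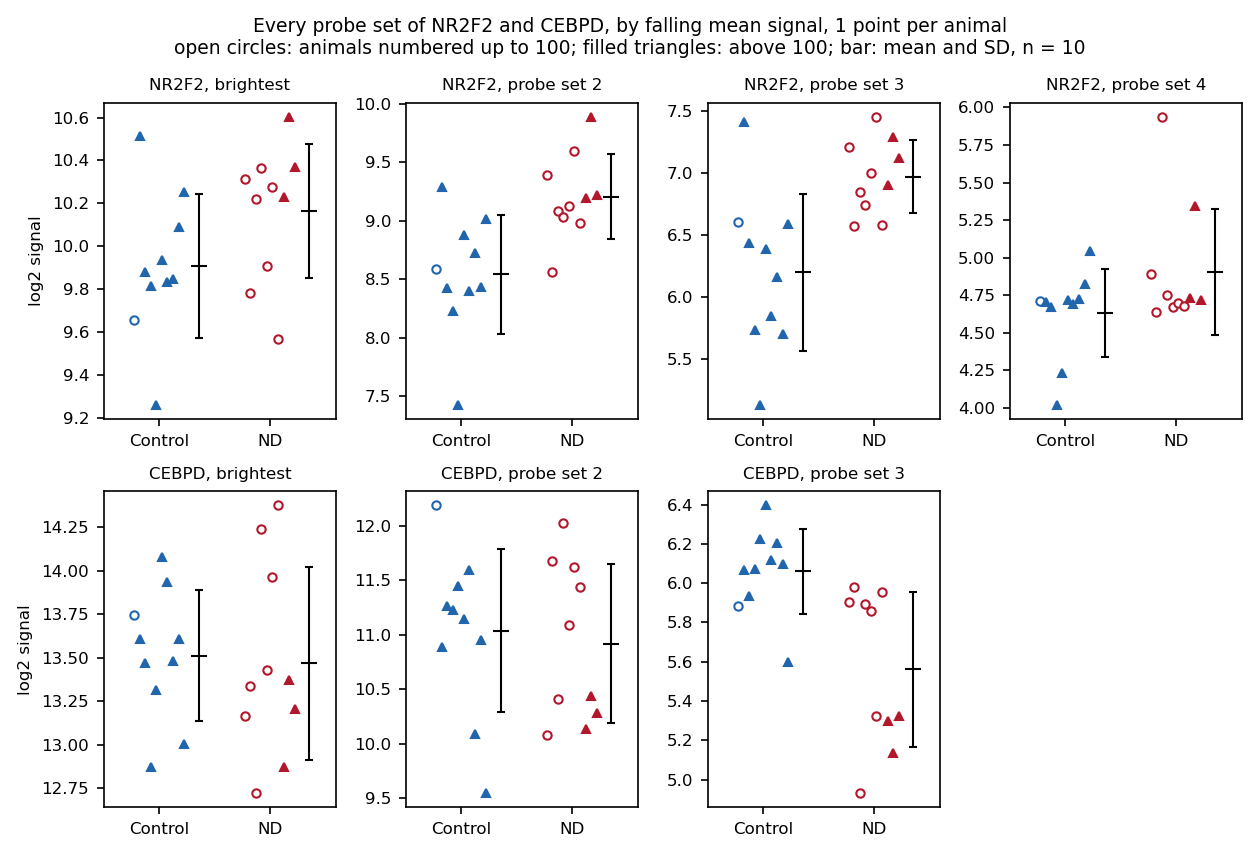
Log2 signal of each probe set of NR2F2 (4) and CEBPD (3) in every animal, ordered by falling mean signal. The middle NR2F2 probe sets (differences 0.67 and 0.77) stand further apart than the brightest (0.25), and for CEBPD the dimmest (-0.50) differs where the brightest (-0.044) does not.

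**Figure D5:**
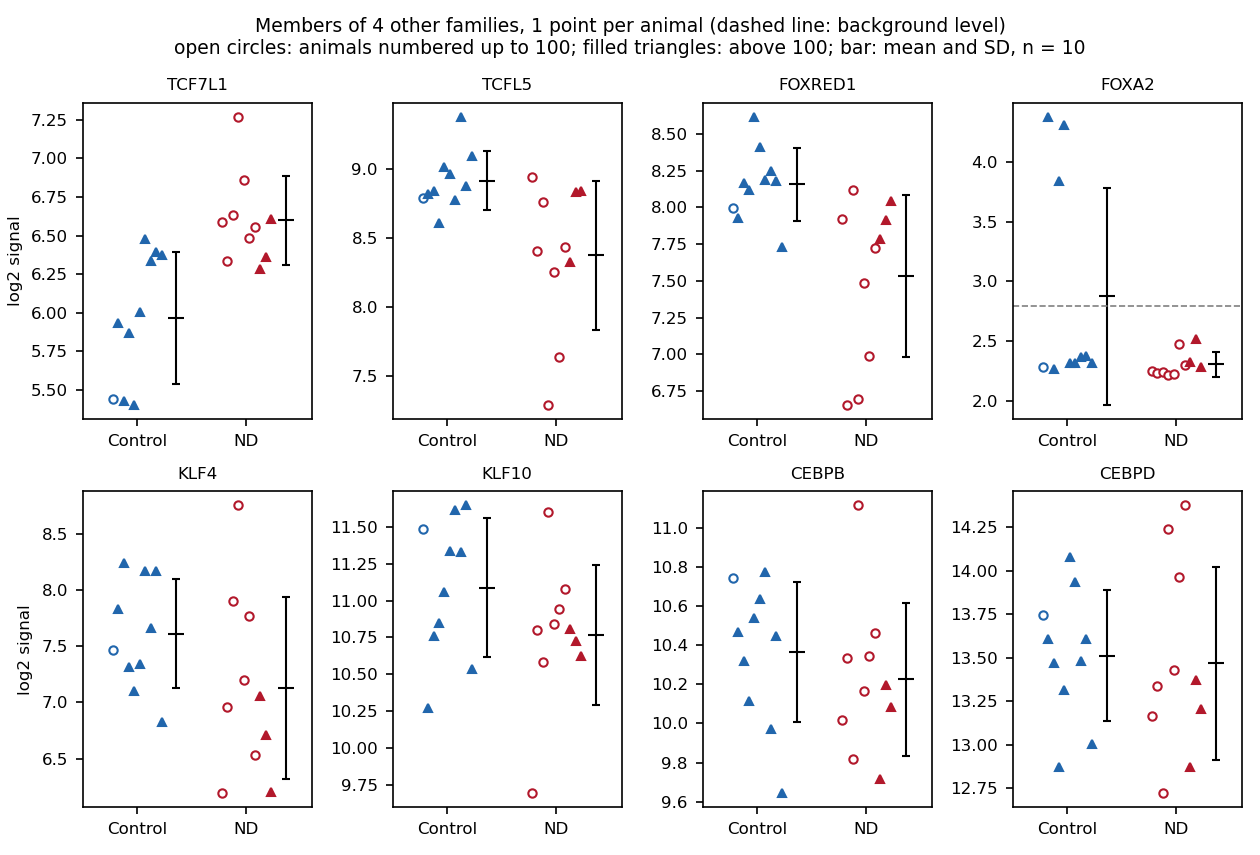
Log2 signal in each animal for 8 TCF, FOX, KLF and CEBP members, with group mean and SD and the background level where it falls in the panel. TCF7L1 controls split by animal number, the lowest TCFL5 and FOXRED1 values in ND come from a few animals, FOXA2 is read in 3 controls, and the KLF and CEBP panels overlap.

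None of 5 GATA genes passed in limma (0 at an unadjusted p under 0.05). GATA2, expressed in endothelium and collecting duct, was at 0.36 (95% interval -0.039 to 0.76), and GATA3, of distal nephron and lymphocytes, at 0.16 (-0.25 to 0.58). GATA6 was at -0.057, with an SD of 0.71 in ND and 0.19 in controls: 3 ND animals were above every control and 5 below every control. GATAD2A was at 0.25 (95% interval -0.027 to 0.53), with SDs of 0.42 and 0.11. GATA4 was under background throughout.

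The 3 NFI genes, nuclear factor I proteins of renal and neural development, did not pass in limma either (0 at an unadjusted p under 0.05). NFIA was at 0.12, NFIB at -0.27 and NFIC at -0.023, and their 95% intervals together ran from -0.63 to 0.49. SOX10 was at -0.081, just above background in every animal (2.91 to 3.42). SOX9, which marks injured and repairing tubule cells, was under background in all 20 animals, as was PAX3 of the neural crest.

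The 11 members under background on all arrays had differences from -0.063 to -0.011, all 11 below 0. So did 93.6% of the 842 genes of the whole table that were under background throughout, with a median of -0.030, and the lower quartile of the arrays was 0.033 lower in ND. Those 11 readings give no level, and they account for 11 of the 35 members below 0.

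Partner genes outside the families were taken from lists written with earlier results of these data known. Nuclear receptors with other symbols gave 0 of 14 passing in limma (1 at an unadjusted p under 0.05), and PPARA, RARA, RXRA, RXRG, ESR1, ESR2 and PGR were at background on all arrays. Of 9 measured co-regulators NCOA4, a steroid receptor coactivator that also carries ferritin to autophagy, fell (-0.45, adjusted p = 0.0194), and PPARGC1A was at -0.41 (adjusted p = 0.0916). Of 10 liver X receptor targets the 1 that passed, TLR4 (0.79, adjusted p = 0.0138), is an innate immune receptor gene. The NCOA4 and TLR4 calls were lost with the animal number term and in the high-numbered animals. HNF1 targets of the kidney gave 0 of 10 (1 at an unadjusted p under 0.05). Of 12 kidney genes that steroid receptors induce 6 fell and none rose (median -1.02). Robustness was examined for up to 3 called genes of smallest p in each partner or marker list, 21 genes in all. With the animal number term 6 of these 21 passed, and in the high-numbered animals alone 2 did. The other called genes of these lists were not examined in that way.

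Markers of other cell types stand beside these results. Of 16 leukocyte markers 7 rose and 2 fell (median 0.56), with sums of 65.9 to 85.6 in ND and 67.3 to 76.0 in controls, and S100A8, S100A12 and CD79B were at background on all arrays. Of 9 fibroblast, mesangial and smooth muscle markers 1 rose, with sums of 70.6 to 84.1 in ND and 68.6 to 78.7 in controls. Neither of 2 podocyte markers passed in limma (0 at an unadjusted p under 0.05). Of 8 adipose and neuroendocrine markers 1 fell, and ADIPOQ, PNMT, CYP17A1 and STAR were at background. The part of these markers in the results for TCF7L1, NR2F2, CEBPD and the GATA genes was not tested.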

How the data were processed

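Kidney RNA of 20 pigs (10 ND, 10 control) was labelled as biotin cRNA from 250 ng, per the labels' protocols. The log2 signals were used as deposited by the authors, whose normalization method is not stated in the labels. That the scale is log2 was inferred from the range, 0.88 to 16.2, and from hybridization spikes 6.16 apart. Groups came from sample titles. Of 24123 probe sets 124 controls were left out. Symbols came from the platform annotation, and 54 of the 55 members' Entrez IDs were in the RefSeq table of Sscrofa11.1. For each gene the probe set of highest mean signal was used. limma 3.58.1 (lmFit, eBayes, no covariate) in R 4.3.3 was fitted to 23999 probe sets. Members, gene lists and tests were chosen with earlier results of these data known. Named were all members past the threshold, the smallest p and highest mean of each family, a list of genes of prior interest, and up to 3 genes per list. PRKRA, the HOXD flanking genes and remaining members named, with FGB, FGG, NOS3 and THBD, were chosen after their values were seen. In simulated data for this comparison, run on 23999 probe sets, 44% of 1.41-fold rises and 88% of 2-fold rises were recovered. Of 2-fold falls 76% were recovered, and there were 14 false calls. The simulated noise was independent, with the same SD in both groups, and only brighter probe sets were changed, so dim ones such as NR1I2 were not covered. It held no array shift and no imbalance of animal numbers, so its false calls do not carry over to these data. Alternatives were other scalings, a filter on dim probe sets, other variance models, a term for animal number up to 100, the high-numbered animals alone, means over probe sets, other thresholds and animals left out. The number of arrays limits precision, and limma's p-values set the group differences against the spread between these animals.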

Additional observations from a re-analysis of the deposited data

Results flagged for a closer look

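Among the 36 members read above background on all arrays, 72 sets of 10 values were examined for a sample far from the others, where chance alone marks about 1 set in 20, and 6 were marked. In ND, CEBPB of ND_47 was high (11.1, with the next animal at 10.5). KLF11 of ND_47 was low (5.56, next 6.90), as was NFIA of ND_47 (8.36, next 9.27). KLF10 of ND_01 was low (9.70, next 10.6), and NFIC of ND_31 was low (10.03, next 10.4). In controls, SOX10 of Control_190 was high (3.42, next 3.22). ND_47 accounts for 3 of the 6, and none of these 5 ND values belongs to a member that passed.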

How the results depend on the processing

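Of the 5 members called, HOXD10 alone kept its call in all 13 settings and without each animal (difference -0.90 to -0.67). In the fit of all animals 1 member was higher and 4 lower. The lower count was 16 with array medians made equal, 2 with the animal number term, 1 in the high-numbered animals and 2 at an adjusted p under 0.01. The higher count was 0 in the high-numbered animals, 0 at an adjusted p under 0.01 and 2 with the mean over probe sets. Leaving out each animal in turn gave 1 higher and 3 to 5 lower. All genes called ranged with them, from 0.325% in the high-numbered animals (3 ND and 5 control animals, so fewer samples) to 30.3% with equal medians. No call changed direction in any setting. No linear intensities were met, so that alternative was not run. No paired analysis was possible because the groups share no animal numbers. What the animal number stands for was not tested.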

Other observations

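The HOXD falls can be set against the genes on either side. In RefSeq gene order the cluster holds 8 HOXD genes, of which 3 were measured, and of the 20 protein-coding genes that flank it (10 on each side) 8 were measured. MTX2, directly beside HOXD1, was at 0.0010 (adjusted p = 0.996), LNPK on the other side at 0.16 (adjusted p = 0.300), HNRNPA3 at 0.068, WIPF1 at 0.0053 and CIR1 at -0.094. The 7 that did not pass ran from -0.13 to 0.16. PRKRA, an activator of the stress kinase PKR and the last of the 20, rose by 1.27 (SE 0.30, adjusted p = 0.0135), a call lost with the animal number term (adjusted p = 0.0621) and in the high-numbered animals (adjusted p = 0.213). These genes were chosen by position after the HOXD values were seen.

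Within groups the 3 HOXD genes did not rise and fall together in a way that passed. Of 6 relations computed, HOXD8 with HOXD12 in ND animals had the highest Pearson r (Pearson r = 0.78, permutation p = 0.00854, adjusted 0.0512; Spearman rho = 0.60, permutation p = 0.0737, adjusted 0.180; n = 10), with r = 0.77 without the 2 animals farthest from the HOXD8 median. By Spearman's rho HOXD10 with HOXD12 in ND animals was higher (rho = 0.68, permutation p = 0.0338, adjusted 0.180; r = 0.47, permutation p = 0.163, adjusted 0.326; r = 0.43 without 2 animals). HOXD8 with HOXD10 in controls was negative (r = -0.52, permutation p = 0.129, adjusted 0.326). Its rho was -0.58 (permutation p = 0.0902, adjusted 0.180), and r was -0.77 without 2 animals. High-numbered controls were lower than the other controls in HOXD10 (8.98 against 9.28) and higher in HOXD8 (11.04 against 10.82). The part of animal number in this relation was not tested. In ND animals the same pair had r = 0.37 (permutation p = 0.290, adjusted 0.434) and r = 0.29 without 2 animals. Its rho there was 0.44 (permutation p = 0.206, adjusted 0.309). In controls HOXD8 with HOXD12 had r = -0.22 (permutation p = 0.526, adjusted 0.631) and rho = -0.38 (permutation p = 0.281, adjusted 0.337), with r = -0.27 without 2 animals.

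Members varied more between ND animals than between controls. Of the 36 read above background throughout, 27 (75%) had the larger SD in ND, where 65.3% of 5392 such genes did, with median SDs of 0.40 in ND and 0.33 in controls. Without ND_47 and ND_92 the counts were 23 of 36 (63.9%) and 52.7% of genes. ND_47 was the ND animal farthest from the ND median for 10 of the 36 members and ND_31 for 8.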
